A study of Mus musculus with 8 samples.

Results

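The cytosolic ribosomal protein genes are the 86 mouse protein-coding genes whose symbols begin with Rpl or Rps and a digit, with Rplp0, Rplp1, Rplp2 and Rpsa added and the Rps6k kinases and pseudogene symbols left out, of 21938 protein-coding genes in all. By role, 31 encode core proteins of the small ribosomal subunit and 46 encode core proteins of the large subunit. A further 8 are paralogs or retrogenes of core genes (Rpl3l, Rpl7l1, Rpl10l, Rpl22l1, Rpl36al, Rpl39l, Rps27l and Rps27rt). The remaining one, Rps19bp1, matches by symbol but encodes a nucleolar binding partner of the small-subunit protein RPS19 and not a ribosomal protein. The genes lie on 19 chromosomes, with 14 of them on chromosome 7.

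Nuclei from skeletal muscle of WT C57/Bl6J mice, 10 to 12 weeks old, were the single source of chromatin, and immunoprecipitated DNA was sequenced for the glucocorticoid receptor (GR), H3K27ac, RNA polymerase II (Pol2), H3K4me1, CTCF and H3K4me3. GR is a steroid-activated transcription factor, CTCF is a zinc-finger protein of chromatin loops and insulators, and the 3 histone marks are used to read promoters (H3K4me3), regulatory DNA in general (H3K4me1) and active elements (H3K27ac). Each antibody had 1 library and there were 2 inputs, the first paired by the labels with GR, H3K27ac, Pol2 and H3K4me1 and the second with CTCF and H3K4me3. The labels do not say which muscles or how many mice went into a library. No group was treated, so the comparison is between the ribosomal protein genes and all protein-coding genes within the same lists. Counts and shares are therefore descriptions with no test, no variation between animals was measured, and the read depth of the libraries is unknown.

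A ribosome is assembled from ribosomal RNA and about as many kinds of protein as there are core genes, and every cell must make these proteins in matched amounts. Most of their mRNAs begin with a cytosine and a run of pyrimidines, the terminal oligopyrimidine (TOP) motif, through which the kinase complex mTORC1 and the RNA-binding protein LARP1 control translation. In skeletal muscle, ribosome content is known to increase during growth under load, and glucocorticoids are known to restrain protein synthesis.

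The label of the tissue was checked against marker genes. Of 10 muscle fibre genes, among them Acta1, Ckm and Ttn, all 10 had Pol2 and 8 had GR within 1 kb of a start, and Myh1 and Myh2 were the ones that did not have GR, Pol2, H3K27ac and H3K4me3 together. Of 22 marker genes of other cell types, 6 had Pol2, 4 had GR, and 3, among them the fibroblast and fibro-adipogenic genes Col1a1 and Pdgfra, had GR, Pol2, H3K27ac and H3K4me3 together. Since the ribosomal protein genes are active in every cell type, which cells of the tissue gave their peaks cannot be told from these lists.

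Nearly every ribosomal protein gene carried GR at its promoter. A GR peak overlapped the window of 1 kb to each side of a start at 79 of 86 ribosomal protein genes (91.9%), against 42.6% of all protein-coding genes. Pol2, the enzyme that transcribes these genes, was there at 83 (96.5%), against 46.6% of all genes. H3K27ac was at 83, against 51.9%, and H3K4me3 was at 83, against 60.9%. H3K4me1 was within 1 kb of a start at 78 (90.7%), against 64.3%, and CTCF at 20 (23.3%), against 6.52%. All of GR, Pol2, H3K27ac and H3K4me3 were found together at 79 ribosomal protein genes (91.9%), against 39.5% of all genes.

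The differences in percentage points were smaller when only genes with H3K4me3 within 1 kb of a start were counted. Of these, 79 of 83 ribosomal protein genes had GR (95.2%), against 69.2% of 13369 genes. All 83 had Pol2, against 76.1%, and all 83 had H3K27ac, against 84.2%. H3K4me1 was at 78 of 83 (94.0%), a share close to the 92.8% of all such genes. CTCF was at 20 of 83 (24.1%), against 10.1%.

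In the gene body, from the annotated start to the annotated end, GR had a peak at 76 ribosomal protein genes (88.4%), against 45.2% of all genes. Pol2 had one at 83, against 46.4%, H3K27ac at 83, against 53.8%, and H3K4me3 at 83, against 62.8%. H3K4me1 reached the body of 81 (94.2%), against 69.8%, and CTCF the body of 17 (19.8%), against 13.6%. These genes are short, with a median length of 3328.5 bases, against 17425 bases for all genes. Among genes with a peak in the body, H3K4me3 covered a median of 31.4% of a ribosomal protein gene, against 3.69% over all genes, and GR covered 5.25%, against 0.854%. With the first 1 kb of the body left out, 4 lists fell below the share of all genes. GR then lay in the body of 10 ribosomal protein genes (11.6%), against 19.5% of all genes, and Pol2 in 9 (10.5%), against 12.9%. H3K27ac lay in 10 (11.6%), against 28.2%, and CTCF in 3 (3.49%), against 10.5%. H3K4me3 in 41 (47.7%), against 32.9%, and H3K4me1 in 80 (93.0%), against 64.1%, stayed above it. The 1 kb was counted from the annotated 5′ end of the gene, so promoter peaks at internal starts still counted. Rpl17 and Rps2 were among the genes whose remaining GR peak lay at such a start.

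With peak midpoints counted up to 25 kb from a start, GR was found at 83 ribosomal protein genes (96.5%), against 58.5% of all genes. Pol2 was found at 84 (97.7%), against 57.9%, and H3K27ac at 84, against 63.9%. H3K4me3 was found at 85 (98.8%), against 70.8%, and H3K4me1 at 85, against 77.2%. CTCF was found at 50 (58.1%), against 28.7%. The neighbourhoods were also denser in genes, with a median of 2 other protein-coding genes starting within 25 kb of a ribosomal protein gene, against 1 for all genes.

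**Figure D1:**
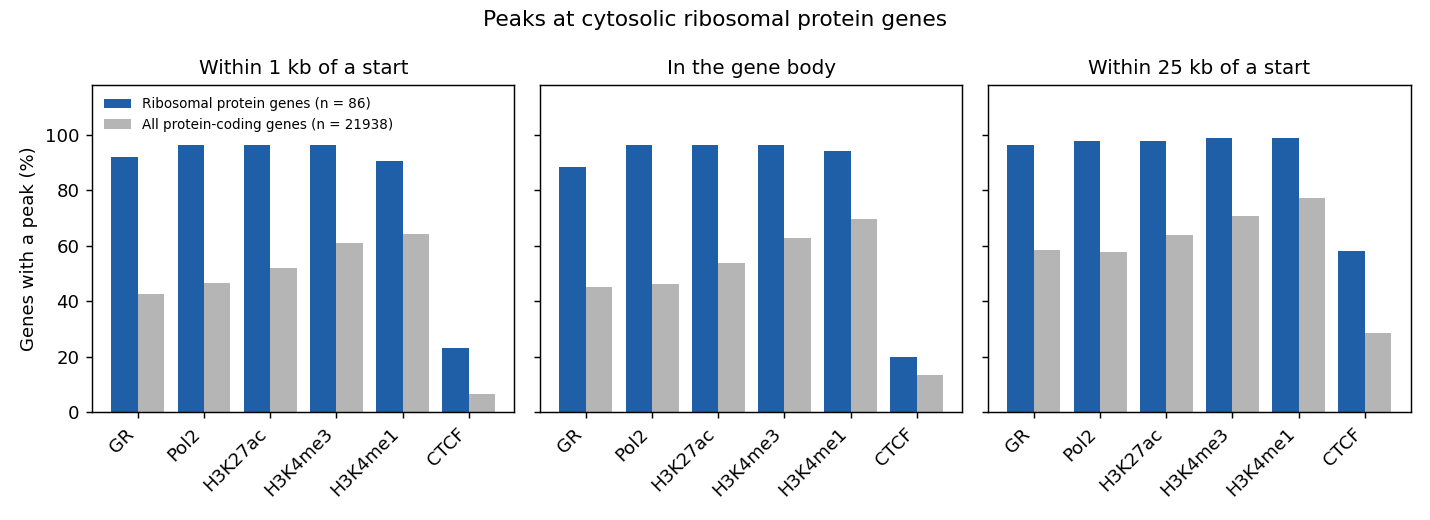
Share of genes with at least 1 peak (vertical axis, percent) for each antibody, within 1 kb of a start, in the gene body and within 25 kb of a start. Blue bars are the 86 ribosomal protein genes and grey bars all 21938 protein-coding genes, with GR near starts at 91.9% and 42.6%. There is 1 library per antibody and hence no error bar.

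The sequences around the RefSeq starts of 8 ribosomal protein genes are shown. Peaks were measured from the starts of the GENCODE annotation, which can differ from those of RefSeq. At Rpl39 the GENCODE start (chrX:37085402) lies outside the stretch shown. Each runs from 60 bases before to 25 bases after the RefSeq start on the gene's own strand (RefSeq, build GRCm38.p6), 5′ to 3′. In the first 6, capitals mark the longest run of C and T from 30 bases before the start on. Rps6, the target of the S6 kinases, and Rplp2, a protein of the stalk that recruits elongation factors, have a pyrimidine run across the start. Rps9, of the small subunit, has one that begins 6 bases before it. Rpl3l, the striated muscle paralog of Rpl3, has none across its start. Rpl39 is a core gene with no GR peak, and Rps15 has one of the strongest CTCF peaks of the family.
Rps6 (chr4:86857343-86857427, minus strand): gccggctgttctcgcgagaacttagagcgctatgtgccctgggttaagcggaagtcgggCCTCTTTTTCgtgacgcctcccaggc
Rplp2 (chr7:141447591-141447675, plus strand): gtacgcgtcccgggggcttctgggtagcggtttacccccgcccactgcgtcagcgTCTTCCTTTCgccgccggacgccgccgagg
Rps9 (chr7:3703981-3704065, plus strand): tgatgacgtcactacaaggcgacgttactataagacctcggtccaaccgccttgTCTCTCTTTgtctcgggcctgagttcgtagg
Rpl3l (chr17:24727766-24727850, plus strand): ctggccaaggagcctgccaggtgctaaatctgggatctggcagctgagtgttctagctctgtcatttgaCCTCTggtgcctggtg
Rpl39 (chrX:37085198-37085282, minus strand): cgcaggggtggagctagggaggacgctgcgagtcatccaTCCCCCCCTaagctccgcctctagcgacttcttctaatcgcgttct
Rps15 (chr10:80292371-80292455, plus strand): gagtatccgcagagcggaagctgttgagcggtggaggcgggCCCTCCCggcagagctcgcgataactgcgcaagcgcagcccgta

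The parent gene Rps27 and its retrogene Rps27rt, an intronless copy on another chromosome, are set side by side because they share sequence after the start and little before it. Capitals in this pair mark bases of the run that both hold.
Rps27 (chr3:90213624-90213708, minus strand): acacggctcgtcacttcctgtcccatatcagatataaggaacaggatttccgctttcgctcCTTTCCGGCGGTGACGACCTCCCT
Rps27rt (chr9:114982715-114982799, minus strand): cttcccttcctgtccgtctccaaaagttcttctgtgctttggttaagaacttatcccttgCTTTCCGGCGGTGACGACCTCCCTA
From the start of Rps27rt, 38 bases stood unbroken in Rps27, beginning 1 base after the Rps27 start. In the 250 bases before the starts, the longest run the genes shared was 10 bases. Rps27 had a GR peak of 325 bases, a Pol2 peak of 363 bases and an H3K4me3 fold of 47.8. Rps27rt had no peak of any of the 6 lists within 1 kb of its start, and its nearest GR midpoint lay 4205 bases away.

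Promoter sequences of 66 of the 86 genes were matched in RefSeq, from 250 bases before to 50 after the start. At the start base itself, a C followed by 4 or more C or T was found in 13 of 66 ribosomal protein genes (19.7%), against 2.22% of 16522 promoters. Allowing such a run to begin within 5 bases of the start gave 28 genes (42.4%), against 18.8%. Among short motifs searched on both strands, CCGGAAGT, a site of ETS factors such as GABP, stood in 12 of the 66 promoters (18.2%), against 5.59% of all. GCCATNTT, a YY1 site, stood in 12 (18.2%), against 6.76%. GGGCGG, the GC box of Sp1, stood in 39 (59.1%), against 48.3%. TATAAA stood in 6 (9.09%), against 12.9%, CGCATGCG of NRF1 in 3 (4.55%), against 2.64%, and CACGTG, the E-box of MYC, in 5 (7.58%), against 8.03%. The ratio of observed to expected CpG had a median of 0.865, against 0.599, at a median GC content of 58.2%, against 57.0%. A match is a description of these letters and does not show that a factor binds there.

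GR and Pol2 peaks were centred on the start. The GR midpoint nearest to a start lay at a median of 7 bases upstream (position -7), and at 69 of the 79 genes with GR it lay within 100 bases of the start. Pol2 midpoints lay at a median of 16 bases downstream, within 100 bases at 70 of 83 genes. Without regard to side, the nearest GR midpoint was a median of 38 bases from a start at the ribosomal protein genes, against 52 bases over all genes with GR this close. For Pol2 the medians were 33 and 45 bases. The upper quartiles were 68.5 bases, against 111, for GR and 63.5, against 92, for Pol2. The share within 100 bases was not computed over all genes. At the start base, GR peaks covered 72.1% of the 86 ribosomal protein genes, against 43.0% of 13286 other genes with H3K4me3, and Pol2 peaks covered 80.2%, against 51.1%.

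H3K27ac lay mostly to the sides of the start and H3K4me3 across it. H3K27ac peaks stood on both sides of the start at 52 ribosomal protein genes, and at 36 of those genes none covered the start itself. Another 15 genes had midpoints downstream only and no H3K27ac peak over the start, and none had them upstream only without such a peak. Rpl17 is among these 15 because of the start used. From its nearest start, its H3K27ac midpoints lay at positions -253 and 307. At the start base H3K27ac covered 37.2% of ribosomal protein genes, against 44.3% of other genes with H3K4me3. At 180 bases downstream it covered 91.9% of them, while the highest value in the other genes was 67.3%, at 160 bases downstream. H3K4me3 covered the start at 91.9%, against 81.1%, and the summit of its strongest peak lay downstream of the nearest start at 72 of 83 genes, at a median of 199 bases. The sides of H3K27ac and of the H3K4me3 summit were counted at ribosomal protein genes only. Whether these counts differ from those of other genes was not tested.

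H3K4me1 peaks lay furthest from the start. They covered the start base at 24.4% of ribosomal protein genes, against 51.0% of other genes with H3K4me3. Coverage was highest 1130 bases downstream, at 86.0%, against a highest value of 60.3% in the other genes, 920 bases downstream. Within 500 bases of a start, H3K4me1 was found at 50 ribosomal protein genes (58.1%), close to the 55.2% of all genes, whereas 1 kb gave 90.7%, against 64.3%.

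**Figure D2:**
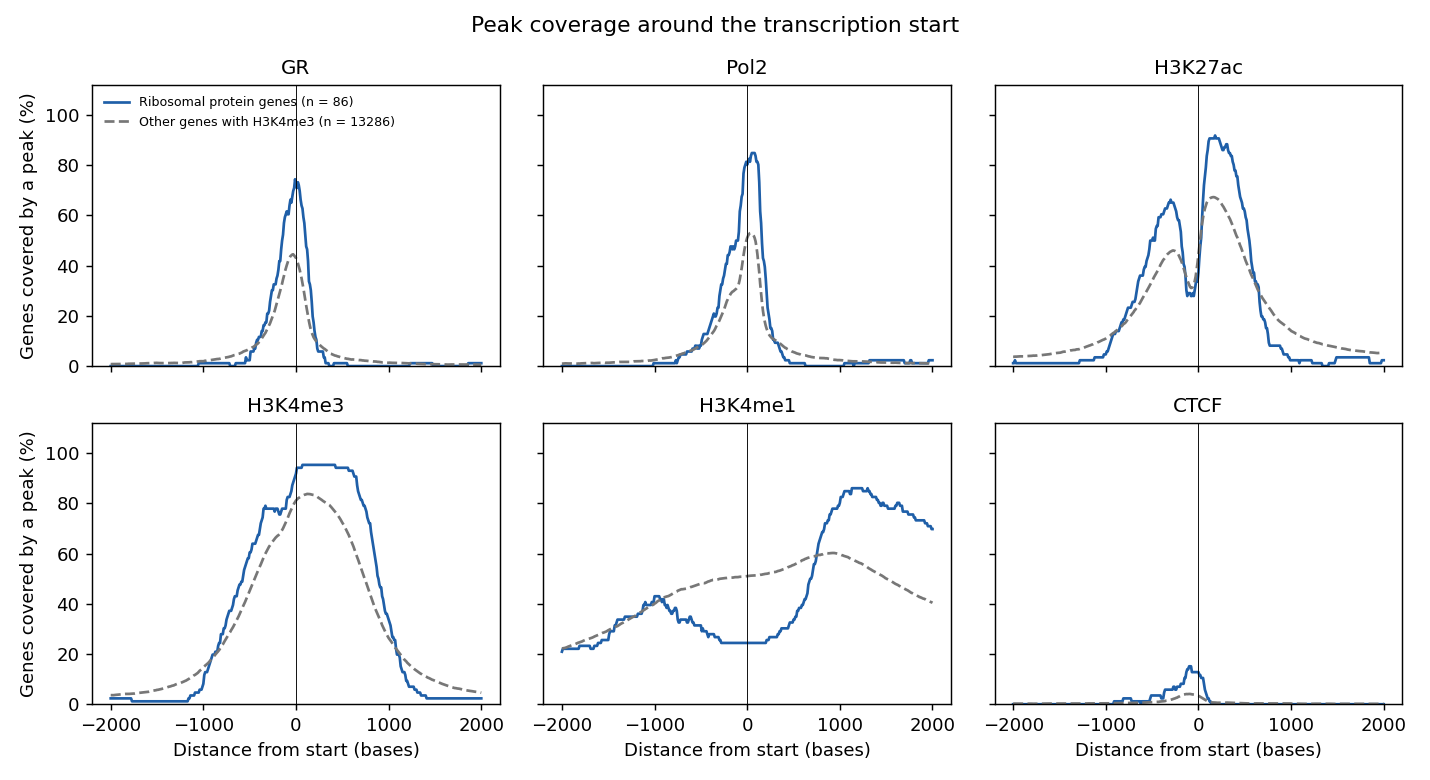
Share of genes covered by a peak (vertical axis, percent) at each distance from the start (horizontal axis, bases, negative upstream), in steps of 10 bases, 1 panel per antibody. Solid blue lines are the 86 ribosomal protein genes and dashed grey lines the 13286 other genes with H3K4me3 within 1 kb of a start. GR and Pol2 peak at the start, H3K27ac dips there, and H3K4me1 reaches 86.0% of ribosomal protein genes 1130 bases downstream.

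All 31 core genes of the small subunit carried GR, Pol2, H3K27ac and H3K4me3 within 1 kb of a start, with a median GR width of 280 bases and a median H3K4me3 fold of 44.2. The fold is the authors' deposited linear enrichment of a peak over its control, and the highest peak at a start was taken. Rpsa, whose protein is also known as the laminin receptor precursor, had the highest H3K4me3 fold of the family, 67.0. Its 1821-base H3K4me3 peak (chr9:120127010-120128830) held GR peaks of 261 and 137 bases and a Pol2 peak of 569 bases, the widest Pol2 peak at any ribosomal protein gene start.

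Rps19, the gene most often mutated in the human disorder Diamond-Blackfan anaemia, had the widest GR peak of the family, 523 bases (chr7:24884246-24884768). A second GR peak of 123 bases lay upstream of it. Its wider Pol2 peak was 253 bases and its H3K4me3 fold was 44.4, so the widest GR peak did not go with the widest Pol2 peak or the highest H3K4me3 fold. Rps9 had a GR peak of 501 bases with 522 bases of Pol2, and Rps2 had 468 bases of GR with 532 bases of Pol2. Rps6 had a GR peak of 345 bases, a Pol2 peak of 448 bases and an H3K4me3 fold of 52.0. Rps3, which lines the mRNA entry channel, had the lowest H3K4me3 fold of the autosomal small-subunit genes, 23.9, with a GR peak of 258 bases and a Pol2 peak of 503 bases.

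Among the large-subunit genes, 42 of 46 carried all of GR, Pol2, H3K27ac and H3K4me3, with a median GR width of 268 bases and a median H3K4me3 fold of 39.3. The widest GR peak there was at Rpl27a, 485 bases, with 517 bases of Pol2 and an H3K4me3 fold of 59.2. Rpl5 and Rpl11, whose proteins bind 5S ribosomal RNA and can hold back the p53 ligase MDM2, had GR peaks of 232 and 271 bases and H3K4me3 folds of 53.5 and 42.3. Rpl13a, known in human cells for a second role in silencing inflammatory mRNAs, had GR peaks of up to 246 bases and a fold of 44.8. The stalk genes differed in GR width, with 449 bases at Rplp0, 123 at Rplp1 and 154 at Rplp2, while their H3K4me3 folds were 48.2, 36.4 and 39.6.

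GR was missing within 1 kb of the start at 4 core genes that had Pol2, H3K27ac and H3K4me3, and all 4 encode large-subunit proteins. Rpl4 had a Pol2 peak of 231 bases and an H3K4me3 fold of 40.5, and its nearest GR midpoint lay 5901 bases away. Rpl6 had 263 bases of Pol2 and a fold of 42.9, with GR at 13012 bases, and Rpl23a had 340 bases of Pol2 and a fold of 39.7, with GR at 4965 bases. The H3K4me3 folds of these genes lie close to the family median of 40.6. Rpl39 had 195 bases of Pol2 and a fold of 18.2, and its nearest GR midpoint was 261307 bases away. A missing peak means that none was called in the deposited list, and the depth behind that call is unknown.

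Width and fold did not set the family as a whole far apart from other genes with such peaks. The widest GR peak at a start had a median of 271 bases at ribosomal protein genes, against 280 over all genes with one, and ran from 123 to 523 bases. The median for Pol2 was 314 bases, against 271, for H3K27ac 573, against 691, and for H3K4me3 1485, against 1317. The median H3K4me3 fold was 40.6, against 33.5. H3K27ac was widest at Rps14, 3669 bases, at Rpl3l, 2122 bases, and at Rpl7, 1799 bases, and H3K4me3 was widest at Rpl7, 3110 bases. The GR peak of 343 bases at Rpl7, inside that H3K4me3 peak, also lies within 1 kb of the start of Rdh10, a retinol dehydrogenase gene. The widest H3K27ac peak of Rps14 lies at a far annotated start, within 1 kb of that of Ndst1, a heparan sulfate enzyme gene. At the main start of Rps14, H3K27ac peaks were up to 1388 bases wide.

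The 4 X-linked genes, a group set apart after their values were seen, had the 4 lowest H3K4me3 folds. These were 16.6 at Rpl36a, 16.8 at Rpl10, 18.2 at Rpl39 and 18.8 at Rps4x. No autosomal ribosomal protein gene with H3K4me3 was as low, the nearest being Rpl3l at 20 and Rpl23 at 20.5, whereas 23.2% of 12957 autosomal genes with H3K4me3 lay at or below 18.8. The median was 17.5 for the X-linked and 42.3 for the 79 autosomal ribosomal protein genes with H3K4me3. Over all genes with H3K4me3 the medians were 19.8 on the X chromosome and 34.0 on the autosomes. The sex of the mice is not given in the labels.

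The other lists gave the following for the X-linked genes. GR was present at 3 of the 4, with widths of 147 bases at Rpl10, 128 at Rpl36a and 224 at Rps4x, against 76 of the 79 autosomal ones, whose median width was 273.5 bases. Over all genes with H3K4me3, GR was present at 35.8% on the X chromosome and 70.3% on the autosomes. Rpl36a, Rpl39 and Rps4x had no H3K4me1 within 1 kb of a start, and the only autosomal genes with the other promoter marks and no H3K4me1 there were Rpl23 and Rps23. Pol2 was present at all 4 X-linked genes, from 195 bases at Rpl39 to 480 bases at Rpl36a.

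**Figure D3:**
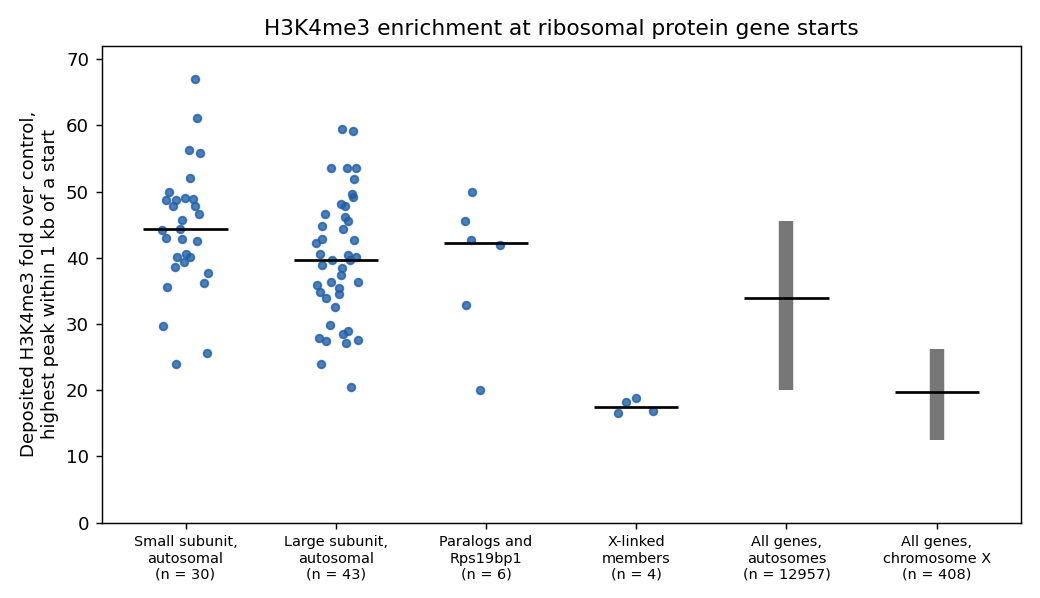
Deposited H3K4me3 fold over control of the highest peak within 1 kb of a start (vertical axis, linear). Points are single ribosomal protein genes by class and black lines are medians, and grey bars span the quartiles of all genes with H3K4me3 on the autosomes and on the X chromosome. The 4 X-linked ribosomal protein genes, from 16.6 to 18.8, sit below every autosomal one.

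The paralogs split into marked and unmarked genes. Rpl3l, which replaces its ubiquitous counterpart Rpl3 in striated muscle ribosomes, had a GR peak of 426 bases at its first start (chr17:24727625-24728050). A second GR peak of 463 bases lay at an internal start (chr17:24732487-24732949). It had 4 Pol2 peaks of up to 442 bases and H3K27ac of up to 2122 bases, with an H3K4me3 fold of 20. Rpl3 itself had GR of 424 bases, Pol2 of 426 bases and a fold of 24.9 at its main start, and a fold of 27.9 at a far start near that of Syngr1. Rpl3l starts 7569 bases from Rps2, so the 2 genes share GR peaks within 25 kb.

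Rps27l, a p53-induced relative of Rps27 in human cells, had a GR peak of 389 bases, 541 bases of Pol2 and an H3K4me3 fold of 49.9, beside 325 bases, 363 bases and 47.8 at Rps27. Rpl22l1 had 392 bases of GR and a fold of 41.9, beside 374 bases and 47.8 at Rpl22, and Rpl36al had 328 bases and 45.6, beside 128 bases and 16.6 at X-linked Rpl36a. Rpl7l1, a relative of Rpl7 that acts in ribosome assembly, had 237 bases and 32.9, beside 343 bases and 49.2 at Rpl7. Rpl10l and Rpl39l, known from mouse male germ cells, had no peak of any list within 1 kb of a start. The nearest GR midpoint was 247889 bases from Rpl10l, beside 1 base at Rpl10, and 241714 bases from Rpl39l, beside 261307 bases at Rpl39. Rps19bp1 had GR of 270 bases and a fold of 42.7.

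CTCF stood at 20 ribosomal protein genes, all of them core genes, 7 of the small and 13 of the large subunit. The authors' deposited CTCF fold was 23.0 at Rpl36, 19.6 at Rps15, 16.4 at Rps3a1, 16.2 at Rpl26 and 15.1 at Rplp0. Lower folds, from 11.6 at Rpl3 down to 4.5 at Rpl38, were found at Rpl13a, Rps4x, Rpl11, Rpl5, Rps14, Rps20, Rpl10a, Rpl36a, Rps29, Rpl32 and Rpl27 among others. At Rpl3 the CTCF peak lay 606 bases from a far annotated start (position -7856 from the main one), within 1 kb of which Syngr1 also starts. The median fold was 9.4, close to the 8.96 of all 1431 genes with CTCF within 1 kb of a start. The CTCF peaks lay slightly upstream, with midpoints at a median of 81 bases before the start (position -81), and at Rpl36 a peak of 310 bases (chr17:56613178-56613487) overlapped the GR peak of 266 bases.

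GR overlapped 17 of the 20 CTCF peaks at ribosomal protein genes (85%), against 64.5% of 1355 CTCF peaks at other gene starts. Pol2 overlapped 16 (80.0%), against 54.2%. The core letters of the CTCF site, AGGGGGC or AGGTGGC on either strand, were searched in the 200 bases around the deposited peak summit. They stood in 5 of the 20 (25%), against 42.7% at other starts and 38.7% of all CTCF peaks. With the CTCF list restricted to the strongest 50% of its peaks, 13 ribosomal protein genes had one, against 4.45% of all genes.

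Most GR peaks within 25 kb of ribosomal protein genes lay at starts, 190 of 221 (86.0%), against 62.7% of the 17525 GR peaks within 25 kb of any protein-coding start. Of the 221, 94 lay at starts of the ribosomal protein genes, 96 at starts of other protein-coding genes and 31 away from any start, with a start taken as the window of 1 kb to each side. Of the 94, 93 overlapped H3K4me3 and 91 overlapped Pol2. Of the 96 at neighbours' starts, 93 overlapped H3K4me3 and 85 overlapped Pol2. Of the 31 away from starts, 17 carried H3K4me1 and H3K27ac without H3K4me3, an enhancer-like pattern (54.8%, against 37.1% of the 6530 such peaks within 25 kb of any protein-coding start), 7 carried H3K4me3, 6 H3K4me1 only and 1 none of the 3 marks, and 13 overlapped Pol2. A GR peak away from starts lay within 25 kb of 21 ribosomal protein genes (24.4%), close to the 23.8% of all genes.

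The largest numbers of GR peaks within 25 kb were 9 at Rpl18, Rpl29 and Rplp2 and 7 at Rps14 and Rps2, against a family median of 2 and a median of 1 over all genes. Those of Rpl18 included peaks at the start of Dbp, a clock-controlled transcription factor gene. Those of Rplp2 included peaks at Pnpla2, the triglyceride lipase gene. Those of Rps14 included peaks around its far start, among them a peak at a start of Ndst1, since all annotated starts were counted. Rpl29 had 4 with the enhancer-like pattern, of 133 to 496 bases, between 15669 and 24020 bases from its start. Rplp0 had 3 such peaks between 11825 and 23657 bases away.

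**Figure D4:**
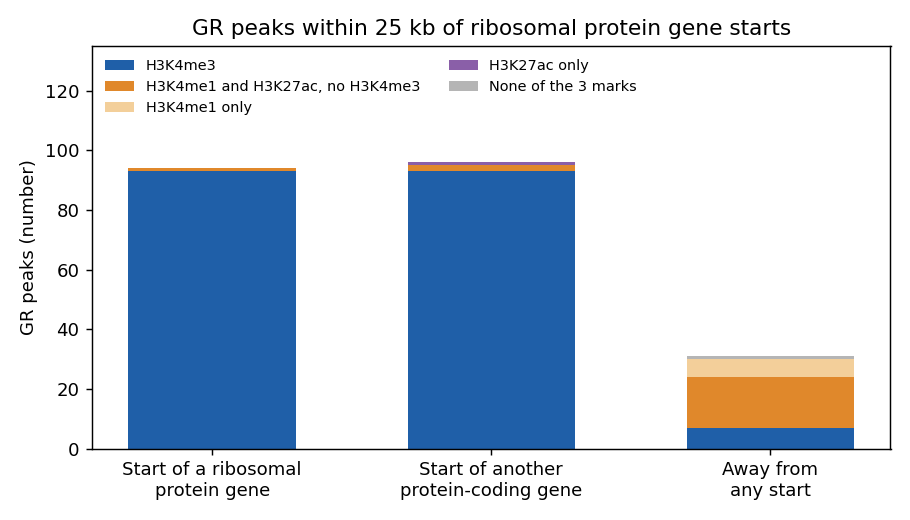
Number of GR peaks within 25 kb of a ribosomal protein gene start (vertical axis), by where the peak lies and coloured by the histone marks it overlaps. Peaks at starts, 94 at ribosomal protein genes and 96 at other genes, nearly all overlap H3K4me3, while 17 of the 31 peaks away from starts carry H3K4me1 and H3K27ac without H3K4me3.

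The classical palindromic GR element (AGAACA, any 3 bases, then TGTTCT) stood, over the whole peak, in none of the 94 GR peaks at ribosomal protein gene starts and in none of the 96 at neighbours' starts. It stood in 1 of the 31 away from starts. In these exact letters the element was rare everywhere, in 41 of 23188 GR peaks (0.177%) by their central 200 bases. Elements that differ from the letters at any base were not counted. AGAACA alone, which the element also contains, stood in the central 200 bases of 12 of the 94 GR peaks at ribosomal protein gene starts (12.8%), against 6.86% of GR peaks at other starts and 17.2% of all GR peaks. In the same windows TATAAA stood in 9 (9.57%), against 2.49% at other starts and 4.68% of all GR peaks. CCGGAAGT stood in 13 (13.8%), against 6.33% at other starts, and GCCATNTT in 13 (13.8%), against 7.52%. GGGCGG stood in 46 (48.9%), against 62.9%.

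Some ribosomal protein genes share their promoter region or their body with other genes. Another protein-coding gene started within 1 kb at 17 of them (19.8%), against 13.3% of all genes, such as Rab13 at Rps27, Syngr1 at one start of Rpl3 and Trappc4 at Rps25. Peaks there cannot be assigned to 1 gene. At the 69 ribosomal protein genes with no such neighbour, GR was present at 63 (91.3%), against 37.5% of 19019 genes without one, and CTCF at 18 (26.1%), against 6.33%. A small nucleolar RNA gene, whose product guides the chemical modification of ribosomal RNA, lay in the body of 30 (34.9%), against 1.18% of all genes, with 58 such genes in total, 5 of them in Rpl4 and 4 in Rpl13a.

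Other genes of translation carried these marks too. Fau and Rack1, which encode ribosomal proteins under other symbols, both had GR, Pol2, H3K27ac and H3K4me3 within 1 kb of a start, with GR of 364 and 202 bases. The same held for all 22 translation factors on the list, such as Eef2 and Eif4e, and for all 12 regulators of ribosomal protein production, such as Larp1 and Mtor. Among 26 genes of ribosome assembly, 22 had all of them and Ltv1, Nop10, Nop58 and Rrp12 lacked GR. Of the 78 mitochondrial ribosomal protein genes, whose products form the separate ribosome of mitochondria, 69 had GR, 77 had Pol2, 78 had H3K4me3 and 11 (14.1%) had CTCF. No difference between these lists and the ribosomal protein genes was tested.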

How the data were processed

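The authors deposited 1 peak list per antibody for mouse skeletal muscle chromatin, without headers. Per the submitters' processing notes, the tools were MACS2, Bowtie (version 1.0.0) and bcl2fastq (version 2.17.1.14) and the build was mm10, with no role or threshold stated. All 6 deposited lists hold positions. The deposited CTCF and H3K4me3 lists add a whole-number score, a linear ratio (fold over the control) and −log10 values of p and q for every peak, recognised from the values since there is no header. Only the fold and the summit position, which these lists also give, were used. Per the labels' protocols, each library took 10 ng of DNA and 7 cycles of PCR. The sources used here state no depth.

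Genes came from the GENCODE annotation of GRCm38, without the 13 mitochondrial protein-coding genes, and mitochondrial peaks were left out. A start is the start of any protein-coding transcript, and overlap means at least 1 shared base. Positions relative to 1 start per gene use the coding start nearest the median of its starts. Profiles span 2 kb to each side. Promoters are RefSeq's. Those of 20 genes were not used here, among them Rpl17, Rpl21, Rpl23a, Rpl29, Rpl3, Rpl30, Rpl32, Rpl36, Rpl7, Rpl8, Rplp1, Rps14, Rps20, Rps27a and Rps29. Motifs in peaks were searched in 200 bases, around midpoints for GR and around the deposited summits for CTCF, without mismatches. Scripts were tested on simulated data, with python 3.11.15, pandas 2.3.3 and numpy 2.4.6. The ribosomal protein genes and the other lists were chosen with earlier results of these data known. Genes named are those without a given mark, the extremes of width, fold and number of peaks, genes with CTCF, the paralogs and a fixed set of well-studied members, and any other was chosen after its values were seen. Some genes that this rule names are counted but not reported by name here. The alternatives were other windows, midpoints in place of overlap, the strongest or widest peaks, RefSeq starts and the body without its first 1 kb. The shares of all genes under these alternatives, and of GR peaks near any gene, were added after the data were seen.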

Additional observations from a re-analysis of the deposited data

How the results depend on the processing

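Of 101 values recomputed for 20 counts of ribosomal protein genes, 91 stayed within 1.5 times the reported count. With the first 1 kb of the body left out, GR lay in the body of 10 genes (11.6%, against 19.5% of all genes), Pol2 of 9 (10.5%, against 12.9%), H3K27ac of 10 (11.6%, against 28.2%), H3K4me3 of 41 (47.7%, against 32.9%) and CTCF of 3 (3.49%, against 10.5%), so that all but H3K4me3 turned below the share of all genes. Counting peaks by midpoint left 32 genes with H3K4me1 near a start (37.2%, against 44.6% of all genes) and 5 with CTCF in the body (5.81%, against 11.7%), both below the share of all genes. A window of 500 bases left 50 genes with H3K4me1, the strongest 50% of CTCF peaks left 13 genes with CTCF at a start, and pyrimidine runs within 5 bases of the start gave 28 genes. Leaving out the first 1 kb removes the promoter at the annotated 5′ end by construction, but not promoters at internal starts. A smaller window or list holds fewer peaks by construction, and the cause of the other changes was not tested. No paired analysis was possible because there is 1 library per antibody and no result comes from a test. With depth unknown, a missing peak cannot be told from a weak one, and peaks of the cell types in the tissue are not separated.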

Other observations

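Pseudogenes with ribosomal protein symbols were almost free of promoter marks in these lists. They were taken by annotated type, processed or unprocessed, so the set need not hold only copies of mRNAs. Of 294 such pseudogenes with a ribosomal protein symbol, a GR peak lay within 1 kb of the start at 3, Pol2 at 2, H3K27ac at 4, H3K4me3 at 1 and CTCF at 2. H3K4me1 was within 1 kb at 33 and in the body of 19. Over all protein-coding genes, GR lay within 1 kb of a start at 42.6%, Pol2 at 46.6% and H3K27ac at 51.9%. H3K4me3 did so at 60.9%, H3K4me1 at 64.3% and CTCF at 6.52%. The share over all pseudogenes was not computed. No GR or Pol2 peak lay in the body of any of the 294. How well reads can be placed on these copies was not tested.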
